A study of Mus musculus with 6 samples.

Results

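Rcan1, the regulator of calcineurin 1, was followed with 6 genes of the calcineurin-NFAT pathway, Nfatc1, Nfatc2, Nfatc3, Ppp3ca, Ppp3cb and Ppp3r1, in leukocytes sorted from mouse brain before and after transient ischemia. The 7 genes were found by their symbols among the 31053 genes of the count matrices. They were chosen by measured values, since a rise of Rcan1 in microglia 1 h after reperfusion had already been seen in these libraries. For that reason every member's level in microglia at 1 h against naive, and every time comparison of Rcan1 in microglia, is a description with no test. The question asked was whether the early rise of Rcan1 is limited to microglia.

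All mice were C57BL/6 and carried floxed Cd300a alleles (Cd300a-fl/fl), Cd300a being an inhibitory receptor of myeloid cells. Control mice carried the floxed alleles alone, and Cd300a-fl/fl Lyz2-cre mice also expressed Cre from Lyz2, a gene active in neutrophils, monocytes and macrophages. For each genotype there was 1 library of naive brains, 1 taken 1 h and 1 taken 3 h after reperfusion, the middle cerebral artery having been closed for 60 min, and each library pooled 3 brains. Live CD45+ cells were sorted, CD45 being carried by all leukocytes, and their RNA was counted by 3′ droplet sequencing. No sham operation, age or sex is given in the sources used here, so time after reperfusion and surgery cannot be told apart.

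Calcineurin is a protein phosphatase switched on by calcium and calmodulin. It joins a catalytic subunit, from Ppp3ca, Ppp3cb or Ppp3cc, to a calcium-binding regulatory subunit, from Ppp3r1 or Ppp3r2. Its best known substrates are the NFAT transcription factors, which enter the nucleus once their phosphates are removed. RCAN1 binds calcineurin and restrains it, and transcription from the proximal of the gene's alternative starts is itself driven by NFAT, so the gene is known as a feedback inhibitor and as a readout of calcineurin activity. In microglia, the resident macrophages of the brain, calcium signals from receptors for extracellular nucleotides are known to engage NFAT.

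Rcan1 (ENSMUSG00000022951) lies on the minus strand at chr16:92391953-92470867 of GRCm38, in the GENCODE vM21 annotation. The promoters of 2 of its starts are shown because the proximal one is the start known to answer to NFAT. The annotated gene reaches further upstream than the distal start used here. Each line gives the 250 bases before a start on the minus strand, read from GRCm38.p6, at chr16:92466170-92466419 for the distal start and chr16:92400079-92400328 for the proximal one. Capitals mark the NFAT core motif, GGAAA or, on the opposite strand, TTTCC.
distal: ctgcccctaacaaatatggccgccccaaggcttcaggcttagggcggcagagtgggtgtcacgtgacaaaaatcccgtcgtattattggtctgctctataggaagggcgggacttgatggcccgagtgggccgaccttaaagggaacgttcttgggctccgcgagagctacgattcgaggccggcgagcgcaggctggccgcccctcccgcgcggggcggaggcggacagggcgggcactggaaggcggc
proximal: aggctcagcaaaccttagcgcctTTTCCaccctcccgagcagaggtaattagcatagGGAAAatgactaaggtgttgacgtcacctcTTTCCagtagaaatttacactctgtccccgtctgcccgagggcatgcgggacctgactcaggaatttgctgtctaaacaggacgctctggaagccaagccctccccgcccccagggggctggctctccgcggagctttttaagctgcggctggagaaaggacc
The proximal window holds 3 matches to the core and the distal window holds 0. Over 32851 promoter windows of the same length, 55.6% hold at least 1 match and 6.39% hold at least 3. The AP-1 motif TGACTCA, searched on both strands, occurs in the proximal window, not in the distal one, and in 4.46% of all windows. A match is a description of the letters and not evidence of binding. The starts lie 66091 bases apart but share their last exons, so 3′ counts cannot tell which start a transcript used.

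The libraries held 35479437 to 48478866 unique molecular identifiers (UMIs), and 47077 of 51005 cell barcodes were used, with median UMIs per cell of 3902 to 5225 in a library. Across libraries, 301 barcode sequences recurred. Cell classes were rebuilt from marker genes, so each is called "-like", and microglia-like cells made up 70.2% to 86.2% of a library. Cd300a checked the labels: in neutrophil-like cells it stood at 162, 232 and 126 counts per 1000000 UMIs (CPM) in the fl/fl libraries (naive, 1 h, 3 h) and at 16.2, 12.8 and 9.60 CPM in the Lyz2-cre ones. In microglia-like cells it stood at 171, 213 and 206 CPM against 137, 172 and 163 CPM. Each group is 1 library, so values carry 95% Poisson or exact binomial intervals, which cover counting error only, and p-values come from an additive edgeR model of genotype and time on the class sums with 2 residual degrees of freedom. They rest on the spread between these libraries after that model, not between animals. For each gene that spread was drawn toward that of the other genes. The weight of this (median prior degrees of freedom) ran from 7.76 in monocyte-like to 39.0 in NK cell-like cells.

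Rcan1 was low in naive microglia-like cells and high in all 4 libraries taken after reperfusion. In fl/fl mice it stood at 34.9 CPM (978 UMIs) in the naive library, 877 CPM (26059 UMIs) at 1 h and 999.6 CPM (20773 UMIs) at 3 h. In Lyz2-cre mice it stood at 42.9 CPM (1308 UMIs), 511 CPM (14657 UMIs) and 948 CPM (27935 UMIs). Naive and post-ischemic libraries did not overlap, and the lowest library after reperfusion was the Lyz2-cre one at 1 h. The ratio of 1 h to naive was 25.1 (95% interval 23.5 to 26.8) in fl/fl and 11.9 (11.3 to 12.6) in Lyz2-cre microglia-like cells. At 3 h the ratio to the same naive libraries was 28.6 (26.8 to 30.5) and 22.1 (20.9 to 23.4). From 1 h to 3 h the level moved 1.14-fold in fl/fl and 1.86-fold in Lyz2-cre mice, so in fl/fl mice most of the difference from naive was already there at 1 h.

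Most Rcan1 transcripts of the sorted cells were microglial in every library. Of all Rcan1 UMIs, 89.5% and 86.6% lay in microglia-like cells of the naive fl/fl and Lyz2-cre libraries, and 97.6% to 98.7% in those of the 4 later libraries. Ordered by the median over 6 libraries, Rcan1 stood at 694 CPM in microglia-like cells and 247 CPM in border-associated macrophage-like cells, the macrophages of meninges and vessels. Monocyte-like cells followed at 27.5, conventional dendritic cell-like (cDC-like) cells at 22.8, neutrophil-like cells at 14.4, NK cell-like cells at 11.6, B cell-like cells at 10.9 and T cell-like cells at 6.09 CPM. Ranges of neighbouring classes in this order overlapped, including those of microglia-like and border-associated macrophage-like cells. Within single libraries, the naive level was higher in border-associated macrophage-like than in microglia-like cells and the order was the opposite after reperfusion.

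**Figure D1:**
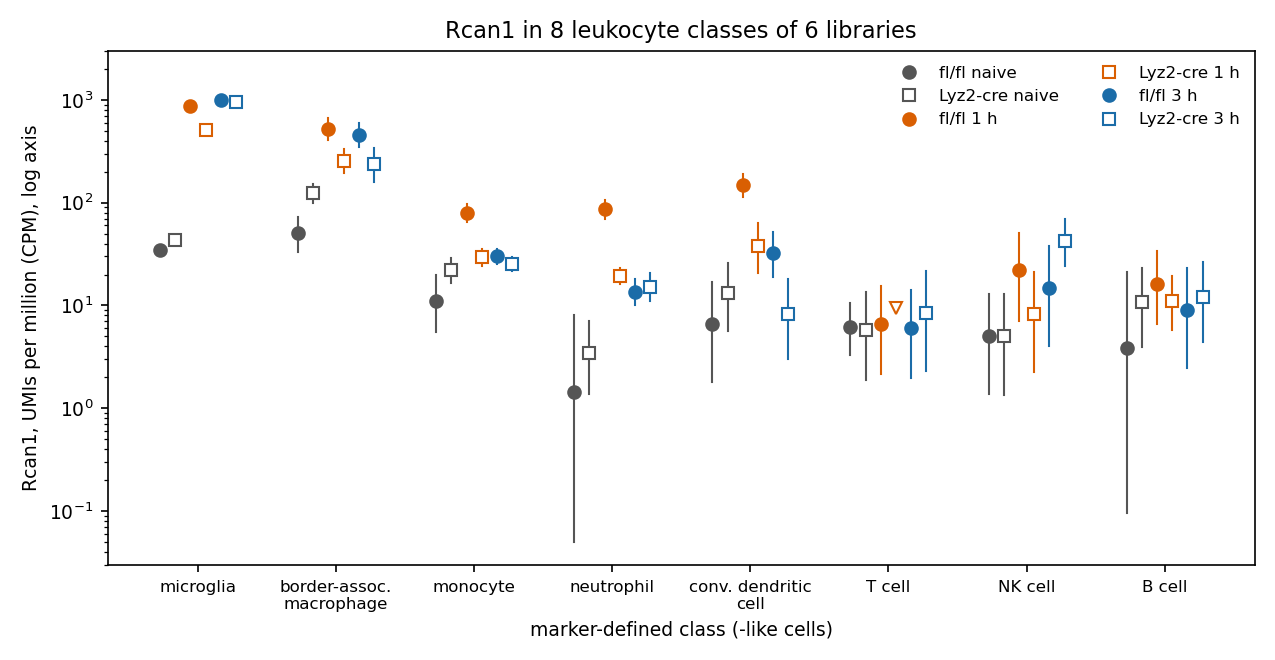
Rcan1 level (CPM, log axis) in each cell class and library. Points are sums of UMIs over the cells of 1 library with 95% Poisson intervals. The open downward triangle marks T cell-like cells at 1 h in Lyz2-cre mice, which held 0 UMIs. It is drawn at the upper limit of their interval, 9.48 CPM. Microglia-like cells run from 34.9 and 42.9 CPM in naive libraries to between 511 and 999.6 CPM afterwards, while T cell-like cells stay at or below 8.47 CPM.

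Per cell, the naive signal was sparse and the later one was carried by a broad but incomplete share of the class. At least 1 Rcan1 UMI was found in 13.3% and 16.4% of naive fl/fl and Lyz2-cre microglia-like cells, 57.6% and 43.3% at 1 h, and 58.5% and 51.0% at 3 h. T cell-like cells, given for comparison, had a Rcan1 UMI in 0% to 4.21% of cells. Their median depths were 4398 to 5124 UMIs per cell, against 3900 to 5202 in microglia-like cells. Thinning each microglia-like cell to 2000 UMIs left a Rcan1 UMI in 5.87% and 6.30% of naive cells, 49.3% and 34.1% of those at 1 h, and 49.3% and 43.0% of those at 3 h. Between 117 and 615 cells of a library were too shallow for that and were left out. The order of the libraries was thus kept at equal depth, apart from the 2 fl/fl libraries, which came out equal.

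Cells rich in the transcript were almost lacking in naive brain. Counts of 5 or more Rcan1 UMIs were found in 0.252% and 0.367% of naive fl/fl and Lyz2-cre microglia-like cells. The share was 29.7% and 15.8% at 1 h and 26.9% and 23.1% at 3 h, and single cells reached 63 to 81 UMIs in these libraries. The mean per cell went from 0.176 and 0.229 UMIs to 3.85 and 2.10 UMIs at 1 h. Some 42.4% of fl/fl and 56.7% of Lyz2-cre microglia-like cells had 0 Rcan1 UMIs at 1 h, which at this depth does not show that those cells lacked the transcript.

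**Figure D2:**
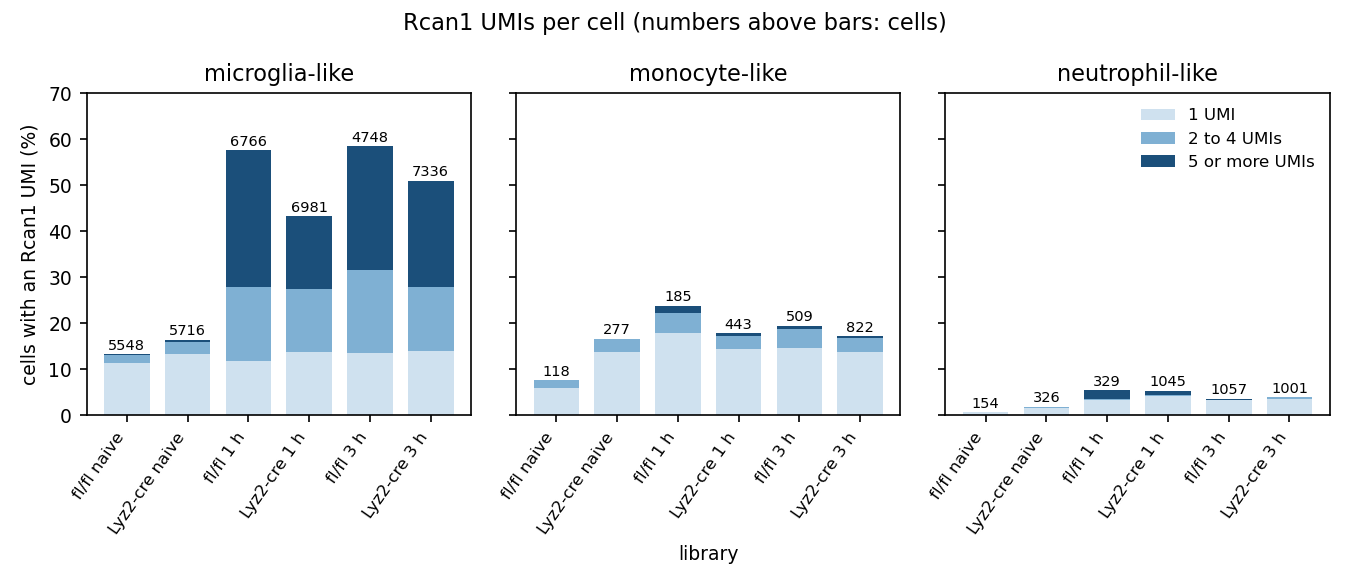
Share of cells (percent, stacked bars from 0) with 1, with 2 to 4 and with 5 or more Rcan1 UMIs in microglia-like, monocyte-like and neutrophil-like cells of each library; the number of cells is above each bar. In microglia-like cells the share with 5 or more UMIs is 0.252% and 0.367% in naive libraries and 15.8% to 29.7% later.

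Clustering placed the Rcan1-rich microglia-like cells together; the gene itself took part in the clustering, so these values describe the clusters and test nothing. The 3 clusters with the highest levels held 93.8% and 84.6% of the class's Rcan1 UMIs at 1 h (fl/fl and Lyz2-cre) in 50.4% and 33.0% of its cells, and 89.8% and 88.0% at 3 h in 53.3% and 38.0% of its cells. Rcan1 stood at 1611 and 1320 CPM in these clusters at 1 h, and at 1501 and 1918 CPM at 3 h. In the other microglia-like cells it stood at 33.9, 111 and 255 CPM in fl/fl mice (naive, 1 h and 3 h), and at 39.2, 117 and 201 CPM in those with Lyz2-cre. Their pooled level was thus higher after reperfusion, but not evenly over their clusters. Of these other cells, 13.2%, 23.8% and 35.03% (fl/fl) and 16.2%, 22.7% and 31.3% (Lyz2-cre) had a UMI. At 3 h their cluster led by Sparc, Tmem119 and Slc1a3 stood at 525 and 445 CPM (fl/fl and Lyz2-cre). It held 14.6% and 17.5% of the class. At that time the cluster led by P2ry12, Gpr34 and Plxdc2, with 19.9% and 20.1%, stood at 60.4 and 52.5 CPM. The cluster led by Sox4, Sparc and Tmem119 then stood at 97.3 and 81.0 CPM. In the rich clusters the Lyz2-cre library was lower than the fl/fl one at 1 h and higher at 3 h. Only 26 and 33 naive cells fell into them.

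The clusters differed in their other leading genes. Leading genes were ranked against clusters of other classes, not against other microglia-like clusters. The one that held 42.1% and 32.2% of microglia-like cells at 1 h (fl/fl and Lyz2-cre) was led by Sparc, Tmem119 and Olfml3. These are microglia markers, and Rcan1 was among its top 10. In it Rcan1 reached 1650 and 1306 CPM, and 92.2% and 84.9% of cells had a UMI. Another cluster, led by Rcan1, Pmp22 and Gdf15, held 32.7% and 28.8% of the class at 3 h, with Rcan1 at 1702 and 2179 CPM. One more was led by the stress genes Hspa1a, Hspb1, Hspa1b and Bag3, and in it Rcan1 stood at 1083 and 752 CPM at 3 h. Beside them, a further cluster with 30.7% and 41.8% of the 1 h cells, led by Sparc, P2ry12 and Olfml3, had far less Rcan1. It stood at 47.9 (43.6 to 52.5) and 56.9 CPM (52.8 to 61.3), above the naive levels of the class given before. The naive cells of this cluster stood at 16.1 (6.46 to 33.1) and 34.2 CPM (20.6 to 53.4), on 7 and 19 UMIs. Clusters led by microglia markers in the same libraries thus differed widely in Rcan1. Whether the Rcan1-rich cluster kept a homeostatic profile relative to other microglia-like cells was not tested. Where the cells lay with respect to the infarct was not recorded in the labels.

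**Figure D3:**
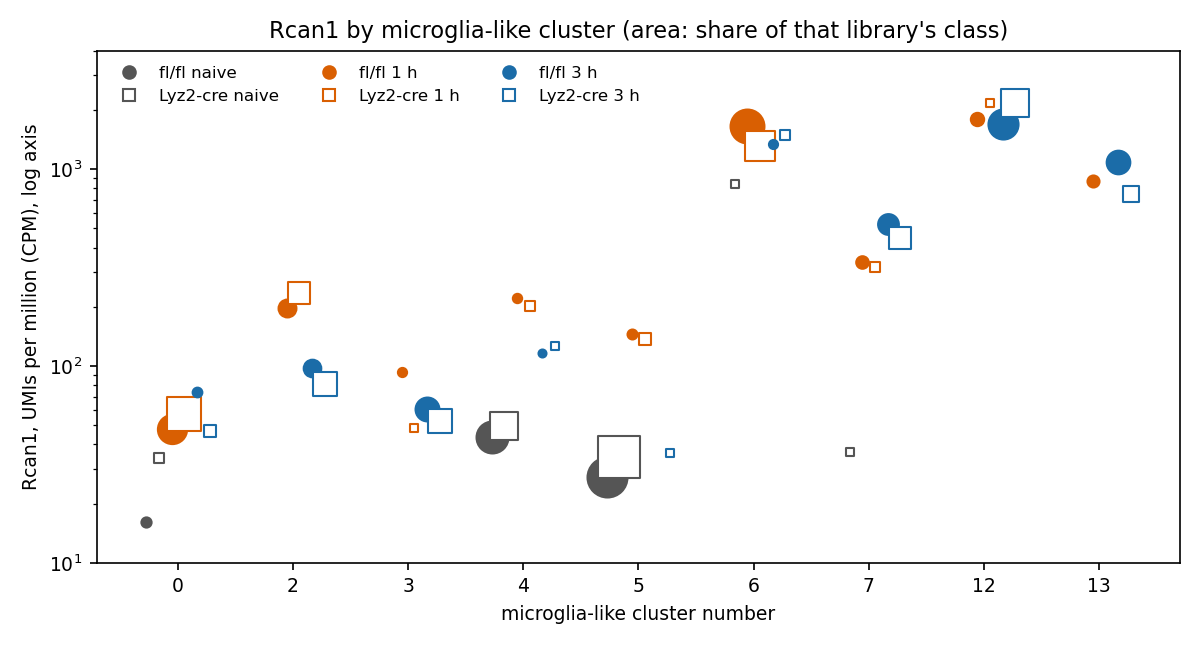
Rcan1 level (CPM) in the larger clusters of microglia-like cells by library; the area of a marker is the share of that library's microglia-like cells in the cluster. Clusters 6 and 12 sit highest after reperfusion, the first at 1650 and 1306 CPM at 1 h, and cluster 0 at 47.9 and 56.9 CPM at 1 h.

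Outside microglia, Rcan1 was tested in the classes whose counts passed the filter. In cDC-like cells, which present antigen, it rose at 1 h. The levels were 6.60 CPM (4 UMIs) in the naive fl/fl library, 148 CPM (61 UMIs) at 1 h and 32.5 CPM (17 UMIs) at 3 h, and 13.1 (8 UMIs), 37.6 (14 UMIs) and 8.29 CPM (6 UMIs) in the Lyz2-cre libraries. Both 1 h libraries lay above both naive ones, the fl/fl library by far the most. At 1 h, 5 fl/fl cells and 2 Lyz2-cre cells with many microglia-marker UMIs gave 93.4% and 71.4% of these counts. The log2 change at 1 h was 3.24 ± 0.53 (SE; edgeR quasi-likelihood test with Benjamini-Hochberg adjustment, adjusted p = 0.00462), and from 1 h to 3 h Rcan1 fell by 2.26 ± 0.47 on the log2 scale (adjusted p = 0.0172). Without the naive fl/fl library the 1 h value was 1.56 (adjusted p = 0.356). Without the fl/fl 1 h library the later change was -1.43 (adjusted p = 0.231). Of 6535 genes tested in cDC-like cells, 3.86% passed at 1 h against naive, 11.1% at 3 h against naive and 4.61% at 3 h against 1 h, beside 1 of the 7 members in each.

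Neutrophil-like cells had very few Rcan1 counts before ischemia. The fl/fl libraries gave 1.45 CPM (1 UMI), 86.3 CPM (93 UMIs) and 13.6 CPM (47 UMIs), and the Lyz2-cre libraries 3.44 (7 UMIs), 19.4 (126 UMIs) and 15.3 CPM (43 UMIs). All 4 later libraries were above both naive ones. The log2 change at 1 h was 3.76 ± 0.66 with an adjusted p of 0.0526, above the threshold of 0.05, and fell under it in 7 alternatives described with the processing. At 3 h against naive Rcan1 rose by 2.49 ± 0.71 on the log2 scale (adjusted p = 0.0264), a call lost without the naive fl/fl library (1.86, adjusted p = 0.152). From 1 h to 3 h the change was -1.27 ± 0.46 (adjusted p = 0.0550), and it turned positive when doublets were kept or cells with microglia-marker UMIs left out (0.92 and 1.15). With no filter on low counts and in 3 of 6 fits with 1 library left out the fall was called, and those 6 values ranged from -2.26 to -0.11, the last without the fl/fl 1 h library. The ratio of the fl/fl 1 h library to the naive one was 59.6, with a counting interval of 10.4 to 2377 because the naive library held 1 UMI. In neutrophil-like cells 0.397% of 8321 genes passed at 1 h against naive, 29.2% at 3 h against naive and 35.4% at 3 h against 1 h, beside 0, 2 and 1 of the 6 members tested.

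Monocyte-like cells had Rcan1 at 11, 79.8 and 30 CPM in fl/fl mice (naive, 1 h and 3 h; 11, 103 and 152 UMIs) and at 22.2, 29.7 and 25.4 CPM in Lyz2-cre mice (55, 113 and 181 UMIs). The fl/fl 1 h library stood apart and the other 5 lay within 11 to 30 CPM. No call was made: the log2 change was 1.40 ± 0.46 at 1 h (adjusted p = 0.263) and 0.74 ± 0.45 at 3 h (adjusted p = 0.289). The fl/fl ratio of 1 h to naive was 7.25 (3.89 to 15.0) and the Lyz2-cre ratio 1.34 (0.961 to 1.88). Without the Lyz2-cre 1 h library the 1 h change was 2.19 (adjusted p = 0.0470). Only 0.232% of 9898 genes passed at 1 h against naive in this class, 21.1% at 3 h against naive and 19.9% at 3 h against 1 h, beside 0, 2 and 0 of 7 members.

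Border-associated macrophage-like cells were few, 20 to 114 in a library, and held many microglia-marker UMIs at 1 h, as given below. Their Rcan1 stood at 50.2, 523 and 455 CPM in fl/fl mice (27, 66 and 57 UMIs) and at 123, 257 and 238 CPM in Lyz2-cre mice (84, 53 and 29 UMIs). Again all later libraries exceeded both naive ones. The log2 change was 1.96 ± 0.58 at 1 h (adjusted p = 0.125) and 1.99 ± 0.60 at 3 h (adjusted p = 0.0832), so neither passed, although DESeq2 called both (2.03, adjusted p = 0.00892 and 2.04, adjusted p = 0.00698). None of the 4 members tested in this class (Rcan1, Nfatc2, Ppp3ca and Ppp3r1) passed in a time comparison, where 5.57%, 12.2% and 4.18% of 3160 genes did at 1 h against naive, 3 h against naive and 3 h against 1 h.

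Lymphocytes gave too few Rcan1 counts for a test. T cell-like cells held 0 to 13 UMIs in a library and 0 to 8.47 CPM, and the 84 cells at 1 h in Lyz2-cre mice held none. B cell-like cells stood at 3.83 to 16.3 CPM on 1 to 12 UMIs. NK cell-like cells stood at 5.001 to 21.9 CPM except for 42.8 CPM in the Lyz2-cre 3 h library, where 1 cell gave 10 of the 16 UMIs. At this depth no rise could be shown in the T and NK cell-like cells at 1 h: the fl/fl ratio of 1 h to naive was 1.08 in T cell-like cells, with an interval of 0.301 to 3.22, and 4.304 in NK cell-like cells, with an interval of 0.926 to 21.7.

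Because microglia supply most of the transcript, each class's summed level of 10 microglia markers was set beside its Rcan1. In neutrophil-like cells at 1 h the markers stood at 8.02% (fl/fl) and 3.91% (Lyz2-cre) of their level in microglia-like cells. That share of the microglial Rcan1 level is 70.3 and 19.99 CPM, against 86.3 and 19.4 CPM observed, and with the 10 markers both observed intervals include it. In cDC-like cells the same calculation gave 91.9 and 50.8 CPM against 148 CPM observed in fl/fl, whose interval lies above it, and 37.6 CPM in Lyz2-cre cells, whose interval includes it. In monocyte-like cells it gave 45.3 and 23.3 CPM against 79.8 and 29.7 CPM, both intervals lying above. In border-associated macrophage-like cells the markers stood at 28.1% (fl/fl) and 50.2% (Lyz2-cre) of their microglial level at 1 h. In naive libraries these shares were 19.6% and 22.5%. For 1 h the calculation gave 246 and 257 CPM against 523 CPM in fl/fl, whose interval lies above it. In Lyz2-cre cells 257 CPM was observed, and the interval includes it. How much of this class's Rcan1 was microglial RNA was not tested. Over all 6 libraries the Rcan1 interval lay above this level in 5 for monocyte-like cells, 4 for border-associated macrophage-like cells, 2 for cDC-like cells and 1 for neutrophil-like cells. Among lymphocytes it lay above in 4 for NK cell-like, 2 for T cell-like and 1 for B cell-like cells, the naive NK and T cell-like libraries among them. With a shorter list of 8 markers, chosen after seeing the data, the numbers were 6, 4, 3 and 2, and 6, 2 and 1 for the lymphocytes. With it the fl/fl neutrophil-like cells at 1 h, at 86.3 CPM, lay above the level of 69.1 CPM. With the 10 markers the interval lay below this level in 2 libraries for B cell-like, 1 for cDC-like and 1 for neutrophil-like cells. At 3 h fl/fl neutrophil-like cells stood at 13.6 CPM against 16.9 CPM from the markers, which the interval includes. Lyz2-cre ones stood at 15.3 CPM against 24.5 CPM, the interval lying below.

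**Figure D4:**
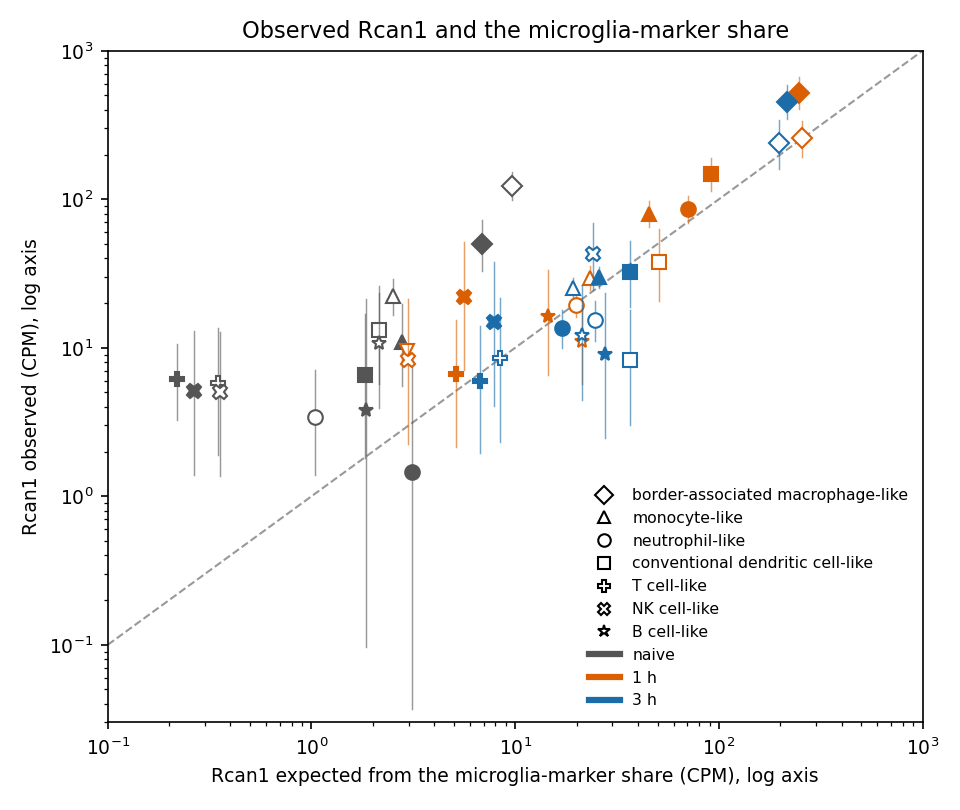
Observed Rcan1 level (CPM) of each class other than microglia-like cells against the level given by that class's share of microglia-marker UMIs (CPM), both on log axes; filled points are fl/fl and open points Lyz2-cre libraries, colours mark the time, and the dashed line is equality. Neutrophil-like cells at 1 h lie close to the line (70.3 and 86.3 CPM, 19.99 and 19.4 CPM) and monocyte-like cells above it.

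The 1 h signal of neutrophil-like and cDC-like cells sat in a handful of cells that also held many microglia-marker UMIs. In neutrophil-like cells, 6 of 329 fl/fl cells and 9 of 1045 Lyz2-cre cells held 5 or more Rcan1 UMIs. These cells carried 84.9% and 59.5% of the class's Rcan1 UMIs. Each held at least 35 microglia-marker UMIs in the fl/fl library and at least 70 in the Lyz2-cre one, where cells with 0 Rcan1 UMIs had a median of 0 and 1. Without them Rcan1 stood at 13.7 and 8.02 CPM. In cDC-like cells, 5 of 36 and 2 of 35 cells held 93.4% and 71.4% of the UMIs, with at least 141 and 132 microglia-marker UMIs each, and without them the level was 12.1 and 11.5 CPM against 6.60 and 13.1 CPM in naive libraries. In monocyte-like cells at 1 h, 3 of 185 and 3 of 443 such cells held 49.5% and 18.6% of the UMIs, and 41.6 and 24.4 CPM were left. Leaving cells out for their own Rcan1 counts lowers the level in any case, so the remaining levels are a description. Whether those barcodes held more than 1 cell was not tested.

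Cells with 0 UMIs of 8 microglia markers were also looked at apart. Monocyte-like cells of this kind, 65 to 510 in a library, had Rcan1 at 3.95, 48.9 and 27.2 CPM in fl/fl mice and at 23.9, 24.7 and 27.2 CPM in Lyz2-cre mice. The fl/fl libraries after reperfusion were thus above the naive fl/fl one, which held 2 UMIs, and the Lyz2-cre libraries were level. Neutrophil-like cells of this kind stood at 0, 4.24 and 10.7 CPM (0, 3 and 29 UMIs) in fl/fl and at 2.82, 7.28 and 14.1 CPM (3, 26 and 29 UMIs) in Lyz2-cre mice. Their change at 1 h against naive was 1.79 on the log2 scale (adjusted p = 0.394) and at 3 h 2.94 (adjusted p = 0.0143). In both genotypes these neutrophil-like cells had their highest level at 3 h, where the whole class had its highest level at 1 h. Their intervals at 1 h and 3 h overlapped, however: 0.875 to 12.4 and 7.17 to 15.4 CPM in fl/fl, 4.76 to 10.7 and 9.44 to 20.2 CPM in Lyz2-cre mice. For the whole class they overlapped in Lyz2-cre mice (16.2 to 23.2 and 11.1 to 20.6 CPM). Where intervals overlap, these counts do not settle the order of the times. For cDC-like cells of this kind the counts were 1 to 5 UMIs and gave no usable comparison.

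Kinds of monocyte-like cell differed in their Rcan1 level, and their shares moved with time. The cluster led by Ace and Ear2, genes of patrolling monocytes, stood at 16.6, 97.0 and 91.7 CPM in fl/fl mice, and at 36.4, 60.9 and 77.0 CPM in those with Lyz2-cre. It made up 53.4%, 49.7% and 14.7% of fl/fl and 69.3%, 42.0% and 21.2% of Lyz2-cre monocyte-like cells. The classical clusters with Fn1 and F13a1 among their leading genes, 1 for each genotype, stood at 9.97, 87.3 and 21.9 CPM in fl/fl mice, and at 8.04, 21.5 and 15.1 CPM in those with Lyz2-cre. In the patrolling kind Rcan1 was therefore still high at 3 h in both genotypes, while that kind's share of the class was lowest; the part of the changing shares in the class level was not tested. Among neutrophil-like cells of fl/fl mice, Rcan1 stood at 0, 121 and 2.81 CPM in the cluster led by Camp and Ngp, granule genes of immature neutrophils, and at 3.46, 65.4 and 14.9 CPM in the other, larger one.

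No class gave a call for Rcan1 between genotypes over the 3 times. The log2 difference of Lyz2-cre from fl/fl was -0.26 ± 0.22 in microglia-like cells (adjusted p = 0.749), an interval of about 2 standard errors from -0.70 to 0.18. It was -0.27 ± 0.48 in border-associated macrophage-like, -0.50 ± 0.34 in monocyte-like, -0.90 ± 0.44 in neutrophil-like and -1.48 ± 0.44 in cDC-like cells (adjusted p = 1, 0.904, 0.553 and 0.740). The microglial ratio of Lyz2-cre to fl/fl was 1.23 in naive, 0.583 at 1 h and 0.949 at 3 h, so the single libraries differed most at 1 h, but with 1 library for each the 1 h difference has no replicate check. Without either 3 h library the neutrophil difference was called (-1.62 without fl/fl and -1.63 without Lyz2-cre). Both fits rest in effect on the same naive and 1 h libraries, so they are not separate checks. Without the naive fl/fl library the cDC difference was called too (-1.998, adjusted p = 0.0441).

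The NFAT factors were present in microglia before ischemia, and their levels kept to a narrow range beside that of Rcan1. Nfatc1 stood at 69.5, 67.0 and 64.4 CPM in fl/fl microglia-like cells (naive, 1 h and 3 h) and at 78.0, 60.0 and 76.2 CPM in Lyz2-cre ones. Nfatc2 stood at 54.2, 51.3 and 48.6 CPM and at 51.7, 51.6 and 47.3 CPM. Naive and later libraries of Nfatc1 overlapped, and those of Nfatc2 lay between 47.3 and 54.2 CPM. Nfatc3 stood at 35.5, 27.3 and 30.3 CPM and at 39.2, 24.8 and 32.8 CPM, lowest at 1 h in both genotypes, and the naive libraries lay above all others. Nfatc4 was at 0 UMIs in all 6 libraries of microglia-like cells.

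At 3 h, 1 of 12 tests on the 6 members other than Rcan1 in microglia-like cells passed. Nfatc3 rose by 0.25 ± 0.09 on the log2 scale from 1 h to 3 h (adjusted p = 0.0479), a call lost in DESeq2 (0.22, adjusted p = 0.278) and without any single library. Against naive, Nfatc1 changed by 0.02 ± 0.09 (adjusted p = 0.872), Nfatc2 by -0.05 ± 0.08 (adjusted p = 0.617) and Nfatc3 by -0.15 ± 0.09 (adjusted p = 0.191). DESeq2 called 0 of the 12, and 2 had an unadjusted p under 0.05. Of 12901 genes tested in microglia-like cells, 47.6% passed at 3 h against naive and 46.9% at 3 h against 1 h, beside 0 and 1 of these 6. At 1 h against naive, the contrast on which the set was chosen, 26.7% of genes and 2 of the 7 members (Rcan1 up, Nfatc3 down) were past the same threshold, from which nothing is read.

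Nfatc1 and Nfatc2 fell in monocyte-like cells. Nfatc1 stood at 73.0, 42.6 and 36.1 CPM in fl/fl mice, and at 78.2, 26.2 and 30.7 CPM in those with Lyz2-cre, with both naive libraries above all later ones. At 3 h against naive it fell by 0.99 ± 0.21 on the log2 scale (adjusted p = 0.00945), and at 1 h the change was -1.18 ± 0.23 (adjusted p = 0.0710). That 1 h change was called with no filter, with the stricter cell filter and in 3 of 6 fits with 1 library left out, which ranged from -1.43 to -0.83 (adjusted p 0.00483 to 0.640). Nfatc2 stood at 15.0, 10.1 and 6.91 CPM and at 21.0, 11.02 and 4.21 CPM, and fell by 1.57 ± 0.35 at 3 h (adjusted p = 0.0123). Both calls were lost without the naive Lyz2-cre library (Nfatc1 -0.70, adjusted p = 0.179 and Nfatc2 -1.07, adjusted p = 0.257) and without the Lyz2-cre 3 h library (-0.97, adjusted p = 0.0604 and -0.96, adjusted p = 0.317). That of Nfatc2 was also lost in DESeq2 (-1.47, adjusted p = 0.103) and in cells with no microglia-marker UMI (-1.50, adjusted p = 0.0597), microglia-like cells having more Nfatc2. Nfatc3 stood at 63.0, 70.5 and 41.8 CPM and at 73.8, 38.1 and 35.7 CPM (-0.65 ± 0.24 at 3 h, adjusted p = 0.0884).

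Nfatc1 was lower after reperfusion in both kinds of monocyte-like cell. Nfatc2 was not lower at 3 h than in naive mice in the fl/fl Ace and Ear2 cluster. In the Ace and Ear2 cluster Nfatc1 stood at 121, 60.7 and 80.5 CPM in fl/fl mice, and at 115, 53.3 and 53.5 CPM in those with Lyz2-cre. In the classical clusters it stood at 49.8, 37.2 and 31.4 CPM and at 41.8, 19.2 and 26.7 CPM. Naive levels were thus the highest in either kind, and the kind with more Nfatc1 had a smaller share of the class at 3 h, as given above. Nfatc2 in the Ace and Ear2 cluster stood at 24.8, 12.1 and 26.9 CPM in fl/fl mice, and at 27.5, 22.8 and 12.2 CPM in those with Lyz2-cre, and in the classical clusters at 12.5, 10.0 and 5.19 CPM and at 14.5, 7.94 and 2.69 CPM.

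In the other classes the NFAT genes gave 1 call. In cDC-like cells at 3 h against naive, Nfatc2 fell by 1.37 ± 0.39 on the log2 scale (adjusted p = 0.0353), from 41.3 and 45.9 CPM in naive to 21.0 and 12.4 CPM (fl/fl and Lyz2-cre), with 43.8 and 26.9 CPM at 1 h. That call was lost under the stricter cell filter (-1.30, adjusted p = 0.0527) and without either naive or either 3 h library, with adjusted p up to 0.444, and the value ranged from -1.84 to -0.86 over the libraries left out. Nfatc1 in T cell-like cells, where NFAT drives cytokine genes after receptor ligation, stood at 89.5, 46.4 and 68.6 CPM in fl/fl mice, and at 83.8, 43.7 and 82.6 CPM in those with Lyz2-cre. Both 1 h libraries were the lowest (-0.79 ± 0.23, adjusted p = 0.0574). This became a call with no filter, in cells with no microglia-marker UMI and without either 3 h library (adjusted p down to 0.0214), while the stricter cell filter gave -0.41 (adjusted p = 0.536). Nfatc1 in neutrophil-like cells stood at 72.5, 44.6 and 40.5 CPM and at 51.6, 19.6 and 38.0 CPM (1 h against naive -0.98 ± 0.28, adjusted p = 0.231).

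By class, each NFAT gene had its own order of levels. Nfatc1 had the highest median over libraries in NK cell-like (103 CPM) and T cell-like cells (75.6 CPM), followed by microglia-like cells (68.2 CPM), with 38.6 to 44.1 CPM in the other 5 classes. Nfatc2 was highest in border-associated macrophage-like (52.2 CPM) and microglia-like cells (51.4 CPM) and lowest in neutrophil-like cells (2.12 CPM), whose range of 0.869 to 7.25 CPM lay far below the microglial 47.3 to 54.2 CPM. Nfatc3 was highest in B cell-like (111 CPM), NK cell-like (105 CPM) and T cell-like cells (98.7 CPM), then monocyte-like cells (52.4 CPM) and microglia-like cells (31.5 CPM). The T cell-like range of Nfatc3, 82.6 to 107 CPM, did not overlap the monocyte-like range of 35.7 to 73.8 CPM; most other neighbours in these orders overlapped.

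The calcineurin subunits gave no call in microglia-like cells. Ppp3ca, the most widely used catalytic subunit in brain, stood at 198, 174 and 165 CPM in fl/fl mice, and at 223, 186 and 182 CPM in those with Lyz2-cre, with both naive libraries above all others. Its change at 3 h against naive was -0.19 ± 0.08 (adjusted p = 0.0670). Ppp3cb stood at 49.2, 44.4 and 42.7 CPM and at 49.2, 46.9 and 51.1 CPM (0.02 ± 0.09, adjusted p = 0.890). Ppp3r1, the regulatory subunit, stood at 59.9, 57.1 and 51.4 CPM and at 60.4, 57.2 and 58.5 CPM (-0.04 ± 0.08, adjusted p = 0.672). The ratio of 3 h to naive was 0.834 and 0.819 for Ppp3ca (fl/fl and Lyz2-cre), 0.869 and 1.04 for Ppp3cb and 0.858 and 0.968 for Ppp3r1, where that of Rcan1 was 28.6 and 22.1.

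Ppp3cb fell in neutrophil-like cells. It stood at 30.4, 32.5 and 5.79 CPM in fl/fl (21, 35 and 20 UMIs) and at 26.1, 28.7 and 8.89 CPM in Lyz2-cre mice (53, 186 and 25 UMIs). Naive and 1 h libraries lay together and both 3 h libraries far below them. The log2 change was -1.58 ± 0.33 at 3 h against naive (adjusted p = 0.00496) and -1.81 ± 0.31 at 3 h against 1 h (adjusted p = 0.00177), comparisons that share the 3 h libraries; at 1 h against naive it was 0.23 ± 0.29 (adjusted p = 0.818). The later contrast was called in every alternative run and the first was lost without the naive fl/fl library (-1.43, adjusted p = 0.0688). The Camp and Ngp cluster, with Ppp3cb at 29.9, 56.8 and 11.2 CPM in fl/fl mice, and at 31.2, 35.1 and 33.4 CPM in those with Lyz2-cre, held 35.1%, 14.6% and 3.12% and 42.9%, 42.0% and 2.90% of neutrophil-like cells. In the other cluster Ppp3cb stood at 31.2, 17.9 and 5.17 CPM and at 14.4, 12.5 and 6.29 CPM. Its level was thus lowest at 3 h within that cluster too, and the part of the changing shares was not tested.

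Ppp3ca and Ppp3r1 gave no call outside microglia. In neutrophil-like cells Ppp3ca stood at 258, 200 and 162 CPM and at 257, 181 and 150 CPM, in the same order in both genotypes (-0.36 ± 0.23 at 3 h, adjusted p = 0.266). Ppp3r1 there stood at 43.5, 54.8 and 24.0 CPM and at 50.2, 36.9 and 25.6 CPM (-0.59 ± 0.28, adjusted p = 0.134). Both genes were lowest in the 3 h libraries of this class. By class, Ppp3ca had its highest median in B cell-like (244 CPM) and its lowest in T cell-like cells (90.4 CPM). Ppp3cb was highest in NK cell-like (65.7 CPM) and lowest in neutrophil-like cells (27.4 CPM), and Ppp3r1 lay between 37.0 and 66.7 CPM in every class.

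**Figure D5:**
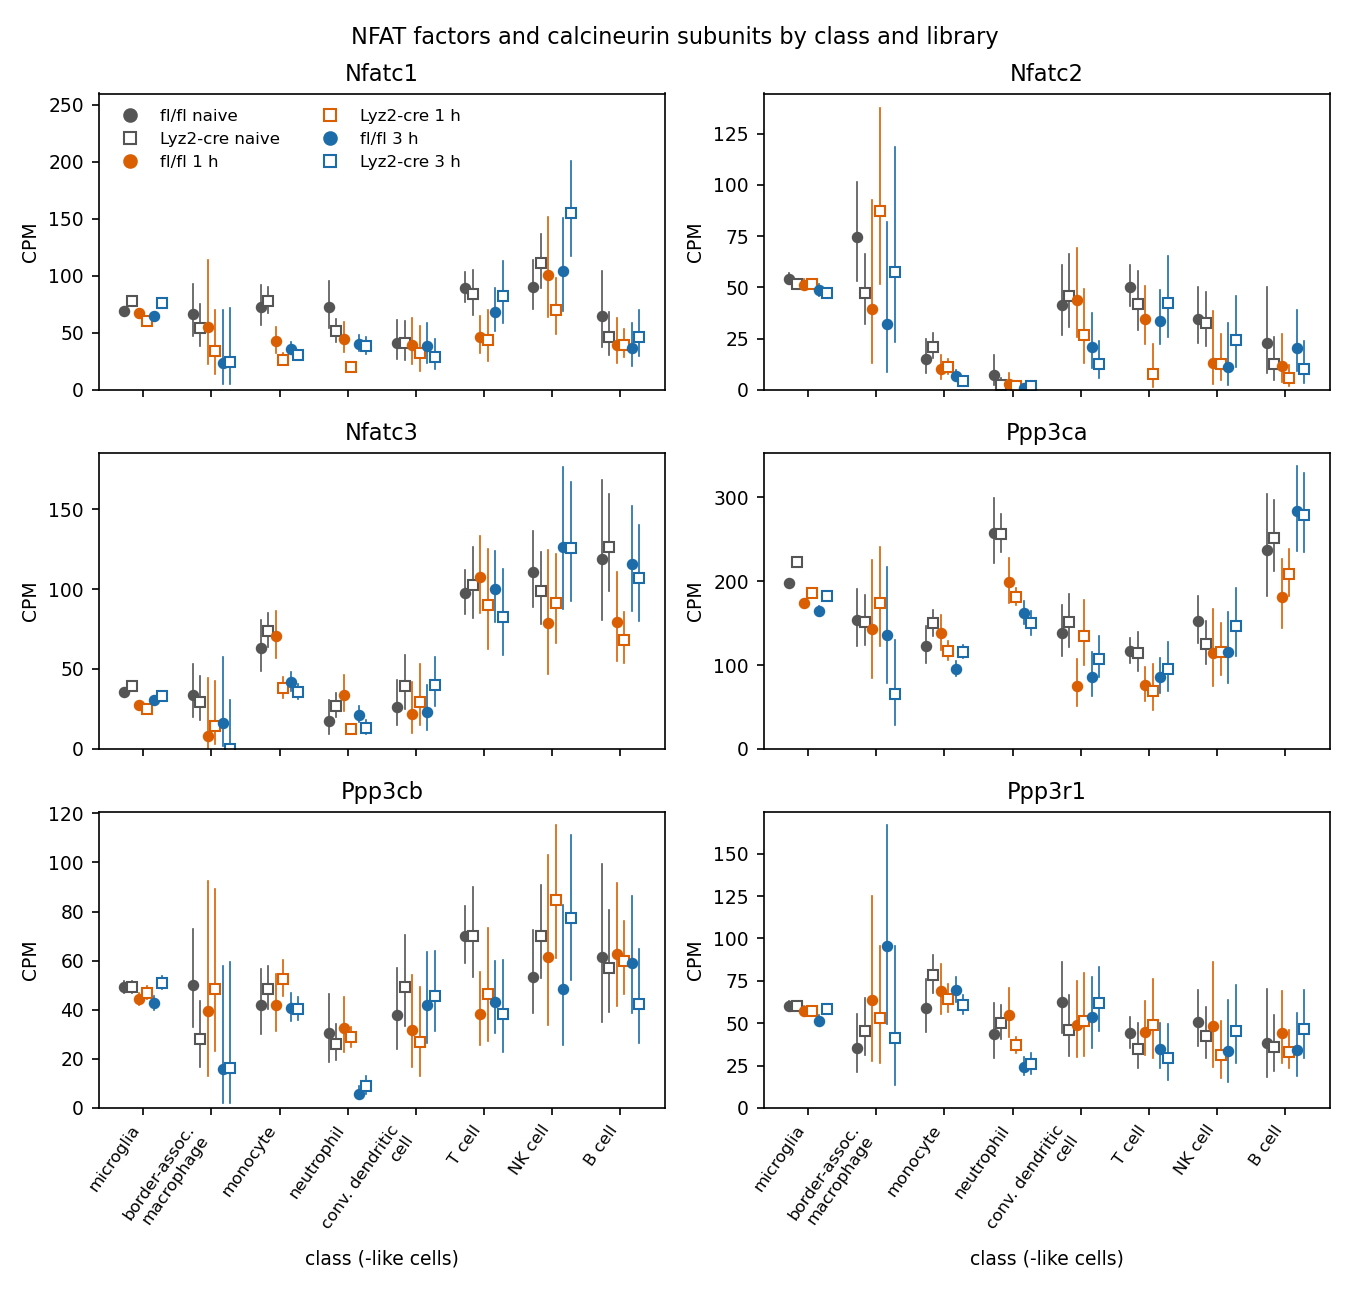
Levels of the other 6 members (CPM, linear axes from 0, 1 panel per gene) by class and library with 95% Poisson intervals. In microglia-like cells the 6 libraries of a gene sit close together, Nfatc1 between 60.0 and 78.0 CPM for example, and in neutrophil-like cells the 3 h values of Ppp3cb, 5.79 and 8.89 CPM, sit below all others.

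Over the members and classes as a whole, 8 of 123 time comparisons outside microglia passed by edgeR, 31 had an unadjusted p under 0.05, and DESeq2 called 8. Beside the classes above, 5.32%, 8.54% and 4.07% of 7468 genes passed in T cell-like cells at 1 h against naive, 3 h against naive and 3 h against 1 h. In NK cell-like cells 2.2%, 2.63% and 1.77% of 6001 genes did, and in B cell-like cells 2.82%, 7.09% and 8.97% of 5885. None of the 6, 6 and 5 members tested in these classes passed in the fit of all cells with the count filter. Between genotypes 0 of 48 tests passed, 2 had an unadjusted p under 0.05 and DESeq2 called 0. The share of all genes called between genotypes was 0.419% in microglia-like, 0.0316% in border-associated macrophage-like, 0% in monocyte-like, 0.024% in neutrophil-like and 0.0612% in cDC-like cells, and 0.0536%, 0.0833% and 0.034% in T, NK and B cell-like cells. Counts of that size leave little to be read from the members' 0.

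Inside the microglia-like class, other members were set side by side in a cluster rich and a cluster poor in Rcan1, again as a description. These clusters were picked by their Rcan1 level, so a wide gap in Rcan1 is given by that choice. Ppp3ca is not shown. At 1 h, the large Rcan1-rich cluster had Nfatc1 at 75.9 and 70.3 CPM (fl/fl and Lyz2-cre) against 61.2 and 55.5 CPM in the Rcan1-poor cluster led by Sparc and P2ry12. Ppp3cb stood at 38.3 and 38.2 against 54.2 and 53.7 CPM. Nfatc2 stood at 48.5 and 48.5 against 53.4 and 53.2 CPM, and Nfatc3 at 26.1 and 23.2 against 30.9 and 26.7 CPM. Nfatc1 was thus higher and Ppp3cb lower in the Rcan1-rich cells of both libraries. Rcan1, by which the clusters were picked, stood at 1650 and 1306 against 47.9 and 56.9 CPM. Ppp3r1 stood at 57.5 and 55.4 against 57.3 and 58.4 CPM.

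Beyond the 7 genes, 55 genes of the pathway were listed by role, the members included, and 46 were tested in microglia-like cells. At 3 h against naive 12 were higher and 11 lower past the threshold, beside 47.6% of all genes. The 12 include Rcan1, whose rise in this class chose the set, so its pass is no result. The median log2 change was -0.04 against -0.02 over all genes tested, and 0 rose and 5 fell between genotypes. Genes of calcium entry gave 0 up and 5 down of 10, among them Orai2, a plasma-membrane calcium channel subunit, with 38.5 and 40.4 CPM in naive and 21.1 and 22.6 CPM at 3 h (log2 -0.76 ± 0.09). Calcineurin subunits gave 0 of 4 in either direction. Inhibitors and partners gave 1 up and 1 down of 7, the 1 up being Rcan1 itself, from which nothing is read. NFAT factors gave 1 up of 4, namely Nfat5, which answers to osmotic stress and not to calcineurin. Rcan2 was at or below 0.0679 CPM, and Rcan3 stood at 11.4 to 15.6 CPM in the 6 libraries.

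Of the 9 listed NFAT target genes tested in microglia-like cells, 6 rose and 2 fell at 3 h against naive, where 47.6% of all genes passed, with a median log2 change of 1.36. Nr4a3, a nuclear receptor induced by calcium and other signals, stood at 0.321, 10.7 and 38.0 CPM in fl/fl mice, and at 0.360, 3.35 and 18.0 CPM in those with Lyz2-cre (log2 6.41 ± 0.29 at 3 h). Ptgs2, the inducible cyclooxygenase, stood at 0.893, 4.74 and 54.0 CPM and at 0.655, 2.20 and 30.7 CPM (log2 5.84 ± 0.16). Egr3 went the other way, at 99.9, 29.1 and 48.9 CPM and at 66.3, 17.8 and 34.2 CPM (log2 -0.90 ± 0.08). From 1 h to 3 h Ptgs2 rose by a further 3.61 ± 0.13 on the log2 scale. These genes answer to many signals besides NFAT.

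Between genotypes 5 of 46 listed genes were lower in Lyz2-cre microglia-like cells, where 0.419% of all genes passed. Nr4a3 differed by -1.30 ± 0.19 on the log2 scale (adjusted p = 0.0425), Ptgs2 by -0.93 ± 0.12 (adjusted p = 0.0112) and Egr3 by -0.66 ± 0.07 (adjusted p = 0.00317). Nr4a1 and Egr2 were the other two. Rcan1, with -0.26 ± 0.22, did not pass beside them.

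In the other classes the counts are again to be read beside the share of all genes that passed. In monocyte-like cells 4 rose and 12 fell of 42 at 3 h against naive (21.1% of all genes), among them Nr4a3 (log2 3.86 ± 0.75, adjusted p = 0.00587) and Egr3 (-3.07 ± 0.85, adjusted p = 0.0323), and the only call at 1 h (0.232% of all genes) was Nr4a1 (-1.16 ± 0.17, adjusted p = 0.0266). In neutrophil-like cells 6 rose and 4 fell of 37 at 3 h (29.2% of all genes), among them Nr4a3 (5.66 ± 1.16, adjusted p = 0.0110), Rcan1 and Ppp3cb, and none passed at 1 h (0.397%). In cDC-like cells 3 rose and 2 fell of 39 at 1 h (3.86%), the risers being Rcan1, Nr4a3 (1.81 ± 0.43, adjusted p = 0.0322) and the calcium channel Orai1 (1.00 ± 0.20, adjusted p = 0.0108). T cell-like cells gave 1 up and 1 down of 39 at 1 h (5.32%), Nr4a1 and Ifng.

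The genes whose levels were most like those of Rcan1 were found by Pearson correlation of log2 values with a pseudocount of 1 CPM. Over 48 sums of class and library, with 9742 genes compared, the 10 highest were Pmp22, Snx24, Mcfd2, Ang, Glul, C3ar1, Npl, Sult1a1, Pla2g15 and Atp6ap2, with r from 0.819 to 0.842. These points share libraries and depth, and the genes are mostly high in macrophages, as Rcan1 is. Over the 6 sums of microglia-like cells alone, with 9376 genes compared, the highest were Grasp, Nr1d1, Ninj1, Ciart, Jdp2, Plaur, Sik1, Znrf1, Hspa1b and Litaf, with r from 0.990 to 0.997. The 6 points fall into low naive and high later libraries, so many genes with any rise score high. Ranked by Spearman correlation in place of Pearson, 5 of the 10 genes over 48 sums and 1 of the 10 over 6 sums were again among the 10 highest. Plaur, the urokinase receptor, had the same rank order of libraries as Rcan1, with 10.4, 146 and 205 CPM in fl/fl mice, and at 13.1, 77.4 and 175 CPM in those with Lyz2-cre. Jdp2, an AP-1 family repressor, stood at 9.71, 117 and 98.1 CPM and at 13.1, 80.6 and 109 CPM. Of the other members over the 48 sums, r was 0.41 for Ppp3r1, 0.40 for Nfatc2, 0.04 for Ppp3ca, -0.13 for Nfatc1, -0.16 for Ppp3cb and -0.52 for Nfatc3.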

How the data were processed

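UMI counts per gene and cell were deposited by the authors as 1 matrix per library, made with Cell Ranger 3.0.2 on mm10 per the submitters' processing notes; the counts are raw and whole. Barcodes under 300 detected genes or over 10% mitochondrial UMIs were dropped, and the cells ranked highest by Scrublet in each library were removed as likely doublets (0.8% per 1000 barcodes). Counts scaled to 10000 per cell, 2000 variable genes, 30 principal components, 15 neighbours and Leiden resolution 1 (scanpy 1.11.5, igraph 0.11.9, Python 3.11.15) gave clusters, which were named from marker lists. A class needed 20 cells in a library.

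Raw UMIs were summed per class and library and fitted over all genes with edgeR 4.0.16 (R 4.3.3; quasi-likelihood test, TMM, genotype and time, Benjamini-Hochberg adjustment, threshold 0.05). DESeq2 1.42.0, other filters and left-out libraries were alternatives. On simulated data, 94%, 88% and 77% of genes changed by 2 on the log2 scale at 1 h against naive were recovered in microglia-like, monocyte-like and neutrophil-like cells, and 26%, 17% and 11% of those changed by 1, over 12793, 9719 and 8015 genes tested. The simulation gave all genes the same fixed spread between libraries and no genotype difference, so these shares need not hold for the real counts. Named genes were the 7 members, up to 3 listed pathway genes per class, contrast and direction with the largest change among those passing, and the 10 genes most like Rcan1. The members, lists and tests were chosen with earlier results of these data known. Promoter windows were read from RefSeq's GRCm38.p6 table, which held 5 of the 7 members; Ppp3ca and Nfatc1 are named only.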

Additional observations from a re-analysis of the deposited data

Results flagged for a closer look

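Rcan1 was lower at 3 h than at 1 h in cDC-like cells and higher in microglia-like cells. In cDC-like cells the log2 change was -2.26 (edgeR quasi-likelihood test, adjusted p = 0.0172), with both libraries lower at 3 h. In microglia-like cells it was 0.49, with both libraries higher at 3 h. The difference between the classes was not tested. Without cells holding 5 or more Rcan1 UMIs, the cDC-like level went from 12.1 to 17.7 CPM in the fl/fl libraries (4 and 9 UMIs). In the Lyz2-cre libraries it went from 11.5 to 8.29 CPM (4 and 6 UMIs). Those cells were left out for their own Rcan1 counts, which lowers the level in any library that held them. No direction is therefore read from what remains.

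Nfatc3 values also differed in sign over the same interval. The log2 change was -0.24 in monocyte-like cells (edgeR, adjusted p = 0.524) and -0.14 in T cell-like cells (edgeR, adjusted p = 0.773), with both libraries of each class lower at 3 h, against 0.25 with both higher in microglia-like cells. The microglial call was lost in DESeq2, with no filter, with the stricter cell filter and without any single library. The differences between classes were not tested.

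Rcan1 was also counted in the cells that were given no class name or resembled progenitors, which enter no comparison. It stood at 43.8 and 33.6 CPM in the naive fl/fl and Lyz2-cre libraries. At 1 h the level was 140 CPM in the fl/fl library and 40.7 CPM in the other, and at 3 h the fl/fl and Lyz2-cre cells gave 146 and 293 CPM. Several of the unnamed clusters had Sparc, P2ry12 or other microglia markers among their leading genes.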

How the results depend on the processing

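No paired analysis was possible because each group holds 1 library. When 1 library is left out, the model fits the other library of that time exactly. That other library then adds nothing to the genotype difference or to contrasts without that time. For these, the 2 fits that leave out either library of a time are not separate checks. The log2 change of Rcan1 in monocyte-like cells at 1 h (1.40, not called) was called without the library of Lyz2-cre mice at 1 h (2.19, adjusted p = 0.0470) or without either 3 h library (1.45 in both cases), and ranged from 0.74 to 2.58 over the libraries left out. In neutrophil-like cells at 1 h (3.76, not called) it was called with no filter on low counts (3.70), with doublets kept (4.41), in DESeq2 (3.904), and in 4 of 6 fits with 1 library left out, which ranged from 2.81 to 5.51. Called time comparisons of members outside microglia numbered 8, 15 with no filter, 12 with doublets kept and 5 to 15 with 1 library left out. In microglia-like cells the 1 call among the other 6 members became 0 with stricter cell filters, in DESeq2 and with any library left out. Between genotypes 0 calls became 1 with no filter, and 0 to 1 with 1 library left out. The log2 change of Rcan1 from 1 h to 3 h in neutrophil-like cells (-1.27) reversed with doublets kept (0.92) and in cells with no microglia-marker UMI (1.15). That last alternative gave no value for cDC-like and border-associated macrophage-like cells. In Rcan1 of border-associated macrophage-like cells the 1 h change was called in 5 and the 3 h change in 4 of 6 fits with 1 library left out. Where no cause is given, the cause was not tested. Depth limits the classes outside microglia, where 1 UMI in a naive library can set a ratio.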
